A study of Sus scrofa with 5 samples.

Results

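Locus totals of the additional molar germs of miniature pigs were compared between E60 and E50, where E stands for the embryonic day. A locus is an interval of the Wuzhishan miniature pig (WZSP) genome in which assembled transcripts overlap, and its total is the FPKM (fragments per kilobase of exon relative to all mapped fragments) summed over all its transcripts. All 18696 loci of the deposited table were used, with their 45614 transcripts. Of these loci, 8168 held 1 transcript and 10528 held several, with a mean of 2.44 transcripts per locus over all loci and at most 23. The series lists 5 samples, of which 1 is labelled E50, 1 E60 and 3 E70. The E50 and E60 samples were compared here, both from wild type miniature pigs and both total RNA of mandibular additional molar germs taken with the dental lamina still attached. RNA was pooled before sequencing, so that each stage has 1 value per transcript, a difference has no replicate check and no P value was computed.

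Additional molars belong to the permanent dentition and replace no milk tooth. They bud in sequence from the distal end of the dental lamina, a band of oral epithelium, so that the first molar (M1) is already shaped while the second (M2) starts. A tooth germ consists of an epithelial enamel organ and the neural crest-derived mesenchyme beneath it. In the cap stage the epithelium folds over the condensed mesenchyme, and in the bell stage the crown takes its form and the cells that will make enamel and dentine are set apart. The study places M1 at the cap stage at E50 and at the bell stage, with M2 starting, at E60. The tissue was not checked here against markers of dental epithelium, mesenchyme, blood or muscle, since neither the deposited table nor the symbols that could be read for its transcripts include them. In such pooled germs, fewer cells of a type and less RNA per cell cannot be told apart.

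The loci were more often higher than lower at E60. A change was taken as the difference in log2(total + 1), a scale that understates the changes of low loci, and a locus was called higher or lower when it differed 2-fold or more on that scale. Of all 18696 loci, 9095 (48.6%) were higher at E60, 3249 (17.4%) were lower and 6352 changed under 2-fold. The median log2 change over all loci was 0.86. Among the changed loci, 73.7% were higher at E60. This share fell to 51.3% when each stage was scaled to the same median over the loci above 0 at both stages, and to 47.3% after quantile normalization, a step that the study names in its methods. Over all loci, 31.6% were higher and 30.04% lower with equal medians, and 28.4% and 31.7% after quantile normalization. The median log2 change of all loci became 0 and -0.43 under these scalings. Quantile normalization gives a locus listed at 0 at both stages a log2 change of -0.47, because tied zeros share the mean of their quantiles and more loci are at 0 at E50. Both scalings bring the stages to a common level by construction, so these shares show only that the balance depends on the scaling.

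The totals were spread differently at the 2 stages. Summed over all loci, FPKM came to 44747113 at E50 and 2875711 at E60. The E50 sum exceeds what FPKM, a rate relative to all mapped fragments, can add up to for transcripts of usual length. The highest E50 values can therefore not be read as amounts of RNA, and their origin was not tested. The 10 highest loci held 58.4% of the sum at E50 and 40.7% at E60. At E50, 899 loci reached a total of 1000 and 230 reached 10000, compared with 270 and 27 at E60. In contrast, a total of at least 10 was found at 4322 loci at E50 and at 9133 loci at E60. Thus E50 had more loci listed at a very high total, whereas E60 had more loci of middle total. The Pearson correlation of log2(total + 1) between the stages was 0.50 over the 18696 loci, which are not independent replicates. The number of reads behind a value is unknown, since the table holds no read counts.

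**Figure D1:**
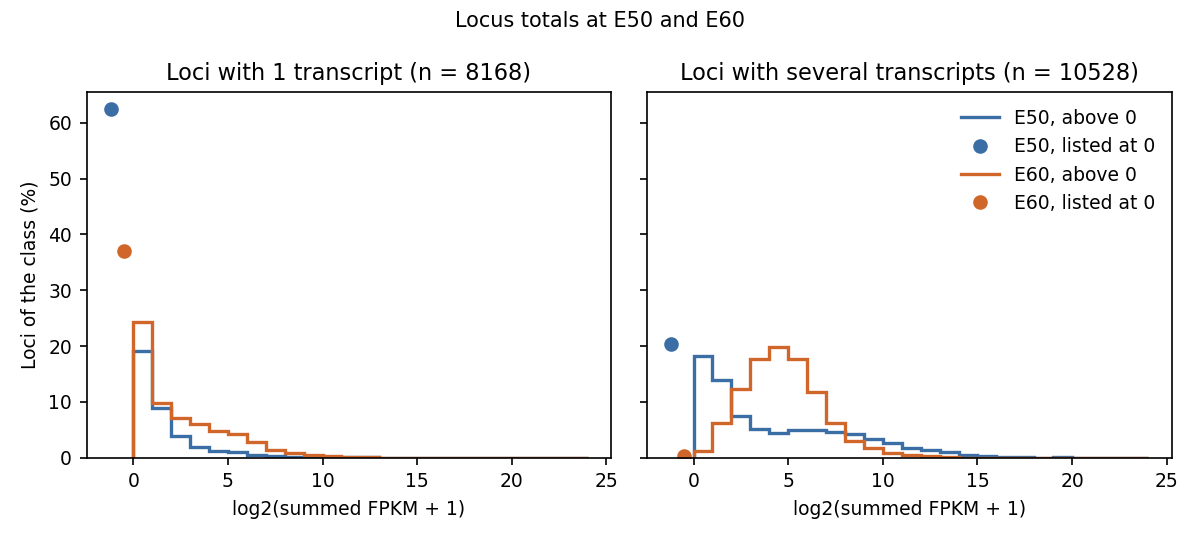
Share of loci (vertical axis, percent of the class) by total (horizontal axis, log2 of the summed FPKM + 1, in steps of 1) at E50 (blue) and E60 (orange), for the 8168 loci with 1 transcript and the 10528 with several. Lines show loci above 0, and dots, drawn left of the axis origin, show the share listed at 0. At loci with several transcripts the E60 totals form a single hump around their median of 23.7 FPKM, whereas the E50 totals run from 0 to far higher values.

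Among loci with 1 transcript, 2642 of 8168 (32.3%) were higher at E60 and 718 (8.79%) were lower. The other 4808, or 58.9%, changed under 2-fold, and 2234 loci were listed at 0 at both stages. The median log2 change was 0.07, with quartiles of 0 and 1.79. Totals above 0 were found at 3072 of these loci (37.6%) at E50 and at 5136 (62.9%) at E60. In detail, 2862 loci were above 0 at E60 alone, 798 at E50 alone and 2274 at both stages. Of the 2274, 1003 were higher at E60 and 298 were lower, with a median log2 change of 0.61. The upper quartile of the totals was 0.532 at E50 and 4.55 at E60, and the number of loci with a total of at least 100 was 93 and 344, respectively. The sum over the class nevertheless stood at 3771562 at E50 and 500957 at E60, and 97.2% of the E50 sum lay in 10 loci. Among the changed loci, 78.6% were higher, compared with 55.2% when the medians were equalised and 40.9% after quantile normalization, so that the direction of the majority turned under the latter. Of all 8168 loci, 45.0% were higher and 16.7% lower with a pseudocount of 0.1, added to each total in place of 1. With equal medians 21.9% were higher and 17.8% lower. After quantile normalization 18.6% were higher and 26.9% lower.

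Over all loci, changes were more frequent in both directions at loci with several transcripts. For rises this depends on loci at or near 0, since with a total of at least 1 at both stages 51.8% of 863 loci with 1 transcript and 39.8% of 6378 with several were higher, and 16.2% and 38.4% were lower. Of all 10528 loci with several transcripts, 6453 (61.3%) were higher at E60, 2531 (24%) were lower and 1544 (14.7%) changed under 2-fold. The median log2 change was 1.92, with quartiles of -0.83 and 3.67. Nearly every locus of this class was above 0 at E60 (10491 of 10528), compared with 8390 (79.7%) at E50. The quartiles and the median of the total were 0.279, 2.39 and 65.3 FPKM at E50, and 8.92, 23.7 and 62.4 FPKM at E60. The upper quartiles thus lay close together, while the lower quartile and the median were higher at E60. At the upper end the order turned, with 867 loci of at least 1000 FPKM at E50 and 214 at E60. Of the 8372 loci above 0 at both stages, 4362 were higher and 2518 were lower, with a median log2 change of 1.19. Of the 6378 with a total of at least 1 at both stages, 2536 were higher and 2451 lower. The share of higher loci among those changed was 71.8% as deposited, 49.7% with equal medians and 50.4% after quantile normalization. The Pearson correlation of log2(total + 1) between the stages was 0.43 in this class and 0.21 at loci with 1 transcript.

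The direction went with the number of transcripts at a locus. At the 3630 loci with 2 transcripts, 74.0% were higher at E60 and 11.6% were lower, with a median log2 change of 2.41. At the 1793 loci with 4 transcripts the shares were 55.2% and 29.1%. The balance turned between 5 and 6 transcripts. The 1024 loci with 5 transcripts were higher in 46.2% and lower in 39.6%, whereas the 554 loci with 6 transcripts were higher in 36.8% and lower in 44.9%. At the 430 loci with 8 or more transcripts, 24.4% were higher, 54.9% were lower and the median log2 change was -1.36. The median total at these 430 loci was 229.6 FPKM at E50 and 59.5 at E60, compared with 0.595 and 13.2 at loci with 2 transcripts. The share of higher loci among those changed went down from 86.4% at 2 transcripts to 30.8% at 8 or more. It went down likewise with equal medians, from 68.6% to 8.42%, and after quantile normalization, from 60.7% to 26.0%. Loci with 1 transcript did not continue this series, with 78.6% as deposited, 55.2% with equal medians and 40.9% after quantile normalization.

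**Figure D2:**
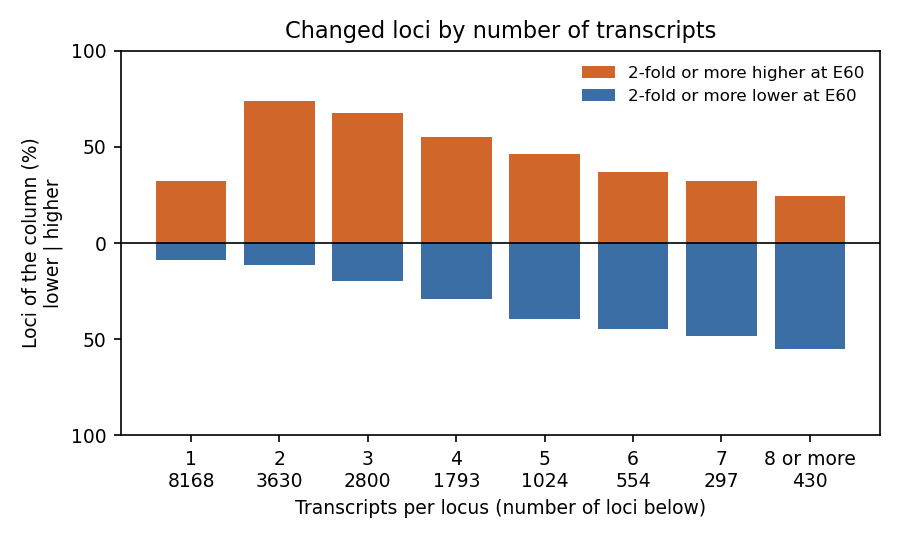
Percent of loci that were 2-fold or more higher (orange, upward) or lower (blue, downward) at E60, by the number of transcripts at the locus (horizontal axis, with the number of loci under each column). From 2 to 8 or more transcripts, the higher share went from 74.0% to 24.4% and the lower share from 11.6% to 54.9%; with equal medians or quantile normalization the column at which the balance turns lies further left.

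Direction also went with the level of the locus. The loci were grouped by the mean of log2(total + 1) over E50 and E60, which uses the values compared and is a description only. This grouping is given as deposited only and was not repeated under the scalings. Among loci with several transcripts and a mean from 1 to 2, 1516 of 1710 were higher at E60 and 18 were lower. With a mean from 5 to 6, 294 of 970 were higher and 432 were lower. With a mean of 8 or more, 76 of 953 were higher and 777 (81.5%) were lower, and the median total of this group was 2822 FPKM at E50 and 223 at E60. At loci with 1 transcript the same turn appeared only at the top, where 10 of 30 loci with a mean of 8 or more were higher and 16 were lower. The part of the level in the differences by number of transcripts was not tested.

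The length of the locus made less difference. Among loci with several transcripts, 64.1% of the 337 spanning up to 3 kb and 57.5% of the 1835 spanning over 100 kb were higher at E60, introns included, and 22.8% and 27.0% were lower. Among loci with 1 transcript, the lower share was 13.4% of the 2346 loci up to 3 kb and 5.28% of the 341 over 100 kb.

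Within loci of several transcripts, the total often hid transcripts that moved apart. Of the 37446 transcripts at these loci, 22202 (59.3%) were 2-fold or more higher at E60 and 5715 (15.3%) were lower. The total was also higher for 65.6% of the higher transcripts, but it was lower for 5018 of them (22.6%). Of the lower transcripts, 71.0% lay at loci with a lower total and 503 (8.80%) at loci with a higher total. A higher and a lower transcript occurred together at 3642 loci, or 34.6%. The total of these 3642 loci was lower at 2238, higher at 467 and changed under 2-fold at 937. Of the 1544 loci whose total changed under 2-fold, 937 (60.7%) therefore held transcripts that moved in opposite directions, and at 301 no transcript changed 2-fold.

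More transcripts of a locus were found at E60. The mean number of transcripts above 0 at loci of several transcripts was 1.68 at E50 and 3.01 at E60. The number was larger at E60 at 7558 loci (71.8%) and smaller at 726. Every transcript was above 0 at 1417 loci at E50 and at 6241 loci at E60. In the study, the first of 2 listed mapping ratios was far lower at E50 than at E60, and the other was nearly equal. The study also lists fewer assembled transcripts at E50. The part of these differences in the numbers found was not tested. The leading transcript, that is, the transcript with the highest FPKM of its locus, differed between the stages at 5790 of the 8372 loci above 0 at both (69.2%). A leading transcript of E60 drawn evenly from the transcripts of each locus, whatever led at E50, would differ at a mean of 67.8% of these loci. The share of the leading transcript in the total had a median of 99.6% at E50 and 64.6% at E60. It held over 90% of the total at 5914 loci at E50 and at 1671 at E60. Where the leading transcript stayed the same (2582 loci), 64.3% of loci were higher and 18.0% were lower at E60, and the correlation between the stages was 0.64. Where it differed, 46.7% were higher and 35.5% were lower, and the correlation was 0.37. The number of transcripts was not held equal in this contrast, and another transcript led at 50.7% of the loci with 2 transcripts and at 89.2% of those with 8 or more. Cufflinks divides the reads of a locus among its transcripts, so single transcript values are less certain than the total.

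The loci with the largest changes were taken among those with a total of at least 1 at both stages, 863 loci with 1 transcript and 6378 with several. None of them is paired with a gene symbol in the deposited table. Of the loci with 1 transcript, the largest rise was that of a locus on scaffold 669 (1347927 to 1349244), from 1.04 FPKM at E50 to 2843 at E60, a log2 change of 10.45. A locus on scaffold 14 (3908562 to 3909973) followed, from 3.04 to 2711 FPKM, a log2 change of 9.39. The next were on scaffolds 93 (17.0 to 4383 FPKM), 1 (8.33 to 2066 FPKM) and 373 (41.0 to 7297 FPKM). These 5 loci spanned between 1318 and 3870 bp, and all of them were above 2000 FPKM at E60. With equal medians their log2 changes ran from 4.85 (scaffold 373) to 8.33 (scaffold 669). After quantile normalization they ran from 8.73 (scaffold 1) to 10.98 (scaffold 669), in another order.

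Among the same 863 loci with 1 transcript, the largest fall was on scaffold 507 (1164144 to 1166568), from 2287 FPKM to 3.02, a log2 change of -9.15. It was followed by loci on scaffolds 513 (279.4 to 1.87 FPKM), 24 (4571 to 47.6 FPKM), C23356898 (1961 to 21.6 FPKM) and 14 (3072771 to 3075046, 1004 to 15.7 FPKM). With equal medians the log2 changes of these 5 ran from -11.32 (scaffold 507) to -8.40 (scaffold 14). After quantile normalization they ran from -9.07 (scaffold 507) to -6.05 (scaffold 14). Among the 863 loci, as deposited, scaffold 14 thus held both the second largest rise and the fifth largest fall. The highest mean level was that of a locus on scaffold 436 (1990345 to 1995198), with 83232 FPKM at E50 and 5102 at E60, a log2 change of -4.03 that became -6.64 with equal medians and -0.15 after quantile normalization. The next, on scaffold 81 (2912159 to 2918098), went the other way, from 4810 to 58210 FPKM, a log2 change of 3.597 that became 0.98 with equal medians and 7.86 after quantile normalization. The third, on scaffold 307 (1542907 to 1546208), had 7294 and 3612 FPKM, a log2 change of -1.01, which became -3.63 with equal medians and 2.61 after quantile normalization. The steadiest locus, as deposited, with at least 10 FPKM at both stages was on scaffold 1219 (6885 to 15414), with 38.1 and 37.4 FPKM, followed by a locus on scaffold 421 (5397554 to 5398081), with 43.7 and 42.2 FPKM. Both were 2-fold or more lower under both scalings, with log2 changes of -2.56 and -2.60 with equal medians and -1.13 and -1.01 after quantile normalization.

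Of the 6378 loci with several transcripts and 1 FPKM or more at each stage, the largest rise was on scaffold 619 (2438995 to 2448812). The total of this locus went from 11.7 to 26203 FPKM, a log2 change of 11.01. Its 5 transcripts did not move together. The only transcript above 0 at E50 had 11.7 FPKM and was listed at 0 at E60, while a transcript listed at 0 at E50 held 22582 FPKM at E60. On scaffold 1832 (367156 to 385497) the total went from 4.73 to 4884 FPKM, and 99.3% of the E60 total lay in a transcript listed at 0 at E50, while the leading transcript of E50 had 4.73 and 3.53 FPKM. The other largest rises were on scaffold 254 (1.15 to 1356 FPKM), scaffold 373 (9.71 to 6744 FPKM) and scaffold 1 (2.33 to 2018 FPKM). Of these 5 loci, the leading transcript stayed the same only on scaffold 254. With equal medians the log2 changes of the 5 ran from 6.77 (scaffold 373) to 8.47 (scaffold 619). After quantile normalization they ran from 9.47 (scaffold 254) to 13.79 (scaffold 619).

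Among the same 6378 loci, the 5 largest falls exceeded the 5 largest rises in size. Loci under 1 FPKM at either stage were not part of this comparison. The E50 totals of the 5 falls are among the values too high to be read as amounts of RNA, so the size of these falls is uncertain. On scaffold 247 (4572687 to 4626220) the total went from 786299 to 1.97 FPKM, a log2 change of -18.02. A single transcript held the whole E50 total and was listed at 0 at E60, and the other transcript went from 0 to 1.97 FPKM. On scaffold 436 (4576255 to 4615382) the total went from 719976 to 15.4 FPKM, with 26.6 FPKM at E60 when a value listed beside E70 replaces a 0, and on scaffold 296 (2152997 to 2314452) from 449123 to 16.7 FPKM. The next were on scaffolds 332 (1019959 to 45.6 FPKM) and 541 (815445 to 45.9 FPKM). At all 5 loci the leading transcript of E50 was listed at 0 at E60, and the transcript that led at E60 was itself higher than at E50. On scaffold 332, 4 of the 5 transcripts that held nearly all of the E50 total carried Cuffdiff's LOWDATA status, written here as too little data. This status can also mark a locus too complex to resolve. The status of transcripts left untested (NOTEST) is a separate one and was not counted with it. With equal medians the log2 changes of the 5 loci ran from -20.05 (scaffold 247) to -16.65 (scaffold 541). After quantile normalization they ran from -17.64 (scaffold 247) to -13.75 (scaffold 541).

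The locus with the highest total at E50, and the highest mean level over both stages, was a short one on scaffold 188 (567440 to 569240), with 14600003 FPKM at E50 and 325468 at E60, a log2 change of -5.49 that became -8.10 with equal medians and -2.17 after quantile normalization. The same transcript led at both stages. Its E50 value, like the total on scaffold 607 below, is too high to be read as an amount of RNA. On scaffold 325 (2682036 to 2698797), a locus of 17 transcripts had 796660 FPKM at E50 and 182180 at E60, with 12 transcripts lower and 5 higher. Its log2 change of -2.13 became -4.74 with equal medians and 0.84 after quantile normalization, and most of its transcripts carried the status of too little data. On scaffold 607 (7830380 to 7837472) the total went from 2994333 to 10002 FPKM, with both transcripts lower, and the log2 change of -8.23 became -10.84 and -3.94 under these scalings.

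Other totals changed under 2-fold, as deposited, over an exchange of transcripts. On scaffold 617 (217627 to 224097) the total was 56.45 FPKM at E50 and 56.42 at E60, while the leading transcript of E50 went from 55.5 to 7.81 FPKM and 3 others were higher at E60. The widest spread between transcripts of a locus with at least 10 FPKM at both stages and a total changed under 2-fold (915 loci) was on scaffold 568 (506500 to 548723). The total was 3656 FPKM at E50 and 2536 at E60, while the leading transcript of E50 went from 3656 FPKM to 0 and another from 0 to 2397. The former carried the status of too little data. The same form was seen on scaffold 421 (4933312 to 4966643), where the total of 9 transcripts was 871.7 and 993.9 FPKM, and on scaffold 454 (3736844 to 3760524), where it was 774.3 and 1277 FPKM. Transcripts at these loci were 9.88 and 10.31 higher on the log2 scale, respectively, while others were listed at 0 at E60. None of these totals stayed under 2-fold with equal medians, where the log2 changes were -2.56 (scaffold 617), -3.14 (568), -2.42 (421) and -1.89 (454). After quantile normalization they were -0.55, 2.73, 3.03 and 3.66, respectively.

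Septins are GTP-binding proteins that assemble into filaments and rings at the cell cortex, where they act in cytokinesis, cell shape and the base of cilia. In the list of annotated transcripts that accompanies the study, which was read here only in part, 13 symbols appear as September dates, the form a spreadsheet gives to septin symbols. They were read as septins 1 to 12 and 14, and the word septin stood in the visible annotation of 10 of the 13. A name belongs to the listed transcript, and the locus may hold others. Of the 13 loci, 4 were higher at E60, 5 were lower and 4 changed under 2-fold, with a median log2 change of 0, beside 48.6% higher, 17.4% lower and a median of 0.86 over all loci. With equal medians 4 were higher and 8 lower, beside 31.6% and 30.04% of all loci. After quantile normalization 3 were higher and 5 lower, beside 28.4% and 31.7%, so the lower share lies near that of all loci.

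Among the septin loci lower at E60, the total of the SEPT9 locus (scaffold 14, 1184920 to 1308208) was 28324 FPKM at E50 and 2137 at E60, a log2 change of -3.73, and that of SEPT7 (scaffold 177, 9347568 to 9423597) was 17210 and 754 FPKM, a log2 change of -4.51. SEPT7 is a core subunit of septin filaments. Its locus held 3 transcripts, all lower, and the listed transcript went from 14848 FPKM to 0. The SEPT5 locus had 1135 and 103.1 FPKM, and the SEPT6 locus 219.7 and 20.0 FPKM. Transcripts with the status of too little data held nearly all of the SEPT9 total, the leading share of SEPT5 and part of SEPT6 at E50. The SEPT14 locus had 1.18 FPKM at E50 and was listed at 0 at E60, in a single transcript that was left untested (NOTEST). The changes of SEPT5, SEPT6, SEPT7 and SEPT14 were also 2-fold or more lower under both scalings, whereas that of SEPT9 was -6.34 with equal medians and -0.49 after quantile normalization.

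Higher totals were found at the SEPT2 locus (20.7 and 415.6 FPKM, a log2 change of 4.26), the SEPT3 locus (0.735 and 14.5 FPKM), the SEPT4 locus (0.944 and 23.7 FPKM) and the SEPT10 locus (listed at 0 at E50 and 67.9 FPKM at E60). At all 4 of these loci, the transcript that carries the septin name was listed at 0 at both stages and another transcript of the locus held the total. For SEPT3 this depends on which values are used, since its named transcript is given 29.0 FPKM at E60 beside E70, with which the total would be 43.4 FPKM and the log2 change 4.68 in place of 3.16. SEPT2 and SEPT10 stayed 2-fold or more higher under both scalings, but SEPT3 and SEPT4 did not after quantile normalization, with log2 changes of 0.27 and 0.73. The SEPT8 locus (scaffold 114, 239050 to 257903) was, as deposited, the steadiest of all 3411 loci with several transcripts and at least 10 FPKM at both stages, with 47.08 FPKM at E50 and 47.10 at E60. Within it, the leading transcript of E50 went from 46.1 to 0.317 FPKM and the listed SEPT8 transcript from 0.930 to 46.1 FPKM. With equal medians the log2 change of the SEPT8 total was -2.55. SEPT11 (327.8 and 229.5 FPKM, at E50 nearly all in a transcript with too little data) and SEPT1 (2.76 and 3.44 FPKM) changed under 2-fold, although SEPT11 was 1.19 higher on the log2 scale after quantile normalization and -3.12 with equal medians. SEPT1 was 2-fold or more lower under both scalings, with log2 changes of -1.71 and -2.51. SEPT12 was listed at 0 at both stages.

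MARCH proteins are ubiquitin ligases with a RING-CH zinc finger. Most of them, but not all, are membrane-bound and mark membrane proteins for removal. In the same list, 8 symbols appear as March dates and were read as MARCH1, 4, 5, 6, 7, 8, 10 and 11, and terms for zinc binding or protein breakdown stood in the annotation of all 8. Of their loci, 1 was higher at E60, 2 were lower and 5 changed under 2-fold, with a median log2 change of 0.31, beside 48.6% higher, 17.4% lower and a median of 0.86 over all loci. With equal medians 5 were lower, beside 30.04% of all loci, and after quantile normalization 5 were lower and 0 higher, beside 31.7% and 28.4%. MARCH7 (scaffold 83, 2014382 to 2049565) had the largest change on the scale used, with 721.4 FPKM at E50 and 34.5 at E60, a log2 change of -4.35, and its listed transcript went from 716.0 FPKM to 0. MARCH1, which acts on antigen-presenting molecules, had 6.45 and 2.19 FPKM. MARCH7 and MARCH1 were lower under both scalings too. MARCH10 was the locus that was higher, with 0.0739 and 8.78 FPKM, and its log2 change of 3.19 was 5.67 with a pseudocount of 0.1, above that of MARCH7, 1.94 with equal medians and 0.85 after quantile normalization.

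The other MARCH loci changed under 2-fold as deposited. MARCH5, a ligase of the mitochondrial outer membrane, had 20.5 FPKM at E50 and 13.6 at E60. MARCH6, a ligase of the endoplasmic reticulum, had the highest E60 total of the 8, with 51.5 FPKM at E50 and 84.8 at E60, although the transcript that carries the name was listed at 0 at both stages. Of the others, 1 went from 44.4 FPKM to 0 and another from 0.604 to 61.8 FPKM. MARCH8 had 16.6 and 26.3 FPKM, MARCH11 had 0.792 and 2.56 FPKM, a log2 change of 0.99 that was 1.58 with a pseudocount of 0.1, and MARCH4 was listed at 0 at both stages. MARCH5 and MARCH8 were 2-fold or more lower under both scalings, MARCH6 with equal medians alone, and MARCH11 after quantile normalization alone, at -1.73 on the log2 scale.

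**Figure D3:**
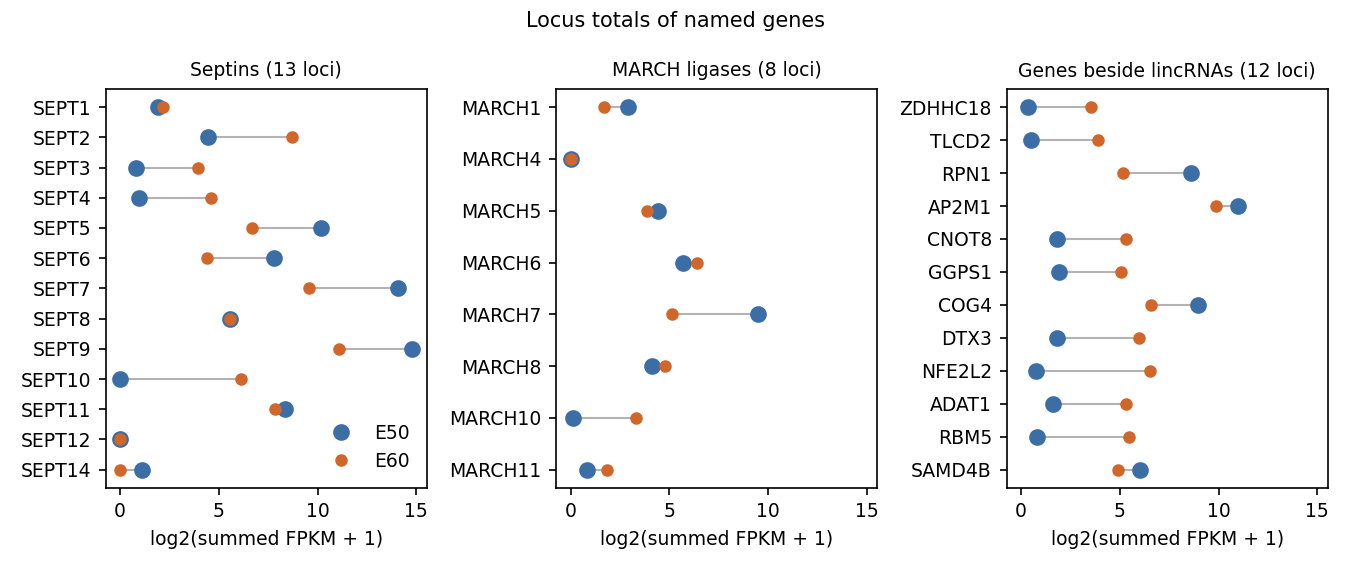
Totals of the loci of 13 septins, 8 MARCH ligases and 12 genes beside lincRNAs at E50 (blue) and E60 (orange), as log2 of the summed FPKM + 1, with a grey line joining the stages and 1 pooled value per stage. SEPT5, SEPT6, SEPT7 and SEPT9 lie lower at E60 and NFE2L2 shows the widest rise among the genes beside lincRNAs, whereas SEPT8 lies at the same place at both stages; the sign of AP2M1, SEPT11, MARCH6, MARCH8, MARCH11, SEPT1 and SEPT8 depends on the scaling.

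The study lists 12 gene transcripts that neighbour a lincRNA (long intergenic non-coding RNA). These pairs were picked by the study on the same values, so their direction is not independent evidence. All 12 listed gene transcripts were 2-fold or more higher at E60, beside 54.5% of all 45614 transcripts, but the totals of their loci were higher at 8 and lower at 4, beside 48.6% and 17.4% of all loci. NFE2L2, a transcription factor of the oxidative stress response, had the largest rise in total (scaffold 66, 7162631 to 7199446), from 0.674 FPKM at E50 to 90.3 at E60, a log2 change of 5.77. All 4 transcripts of its locus were higher. RBM5, an RNA-binding regulator of splicing, had 0.728 and 42.9 FPKM, a log2 change of 4.67, at a locus of 1 transcript. DTX3, a ubiquitin ligase of the Deltex family, had 2.53 and 62.3 FPKM. These 3 loci were higher under both scalings.

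The other higher totals were those of ADAT1, a tRNA adenosine deaminase (2.03 and 38.1 FPKM), CNOT8, a deadenylase subunit of the CCR4-NOT complex (2.54 and 38.1 FPKM), and GGPS1, which makes the geranylgeranyl diphosphate used in protein prenylation (2.74 and 32.6 FPKM). TLCD2, a membrane protein with a TLC domain, had 0.422 and 13.7 FPKM, and ZDHHC18, a palmitoyltransferase, had 0.274 and 10.5 FPKM. The changes of these 5 loci were under 2-fold after quantile normalization, between 0.33 (GGPS1) and 0.87 (ADAT1) on the log2 scale. With equal medians, GGPS1 alone among the 8 higher loci was under 2-fold, also at 0.87.

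At 4 loci the total moved against the listed transcript. RPN1 is a subunit of the oligosaccharyltransferase that glycosylates proteins in the endoplasmic reticulum. Its listed transcript went from 0.694 to 34.7 FPKM, whereas the total of the locus (scaffold 252, 1362692 to 1386210) went from 383.1 to 35.2 FPKM, a log2 change of -3.41. Another transcript of this locus had 336.6 FPKM at E50 and was listed at 0 at E60. COG4, of the complex that tethers vesicles at the Golgi apparatus, had a listed transcript of 0.748 and 28.9 FPKM and a total of 492.0 and 94.5 FPKM. SAMD4B, a Smaug-type RNA-binding protein, had a listed transcript of 1.21 and 18.4 FPKM and a total of 63.5 and 29.5 FPKM. AP2M1, the mu subunit of the AP-2 clathrin adaptor, had a listed transcript of 20.8 and 204.8 FPKM and a total of 2017 and 937.8 FPKM, but nearly all of the E50 total lay in transcripts with the status of too little data. The log2 change of the AP2M1 total, -1.10, became -3.72 with equal medians and 1.77 after quantile normalization, while RPN1, COG4 and SAMD4B were lower under both scalings.

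The loci of the 12 paired lincRNAs all held several transcripts. They were lower at E60 in 9 cases and changed under 2-fold in 3. By comparison, 17.4% of all loci and 24% of those with several transcripts were lower. With equal medians all 12 were lower, beside 30.04% of all loci and 39.5% of those with several transcripts. After quantile normalization 8 were lower, beside 31.7% and 35.4%, and 1, at RBM5, was higher. The lincRNA transcripts themselves were lower at all 12, beside 14.1% of all transcripts. The lincRNA locus beside SAMD4B had 26243 FPKM at E50 and 659.1 at E60, a log2 change of -5.31, and that beside TLCD2 had 1227 and 50.5 FPKM. The lincRNA locus beside NFE2L2 (scaffold 66, 7208993 to 7213190) had 4484 and 839.8 FPKM, and its log2 change of -2.42 became -5.03 with equal medians and 0.51 after quantile normalization. A further transcript of this locus is given 637.7 FPKM at E60 beside E70, with which the total would be 1478 FPKM and the log2 change -1.60. The locus beside RBM5 had 735.6 and 696.4 FPKM, and that beside RPN1 had 41.6 and 37.5 FPKM, although the lincRNA transcripts at both were 3.89 and 3.51 lower on the log2 scale. Transcripts with too little data held most of the E50 total beside RBM5 and part of that beside SAMD4B.

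All 450 lincRNAs on the study's list were found by their identifiers, at 424 loci. The study chose them for a difference between any of the stages, E50 and E60 included, so their direction is not independent of that choice. Of the 424 loci, 91 (21.5%) were higher at E60 and 262 (61.8%) were lower, beside 48.6% and 17.4% of all loci, and the median log2 change was -1.85. The median was also below that of all loci with equal medians (-4.40 beside 0) and after quantile normalization (-1.50 beside -0.43). The lincRNAs shared their locus with other transcripts at 392 of the 424 loci. At the 393 loci with several transcripts, 70 were higher and 252 lower, beside 61.3% and 24% of their class, and the lincRNA transcripts made up a median of 61.7% of the total at E50 and 7.31% at E60. At the 31 loci with 1 transcript, 21 were higher and 10 were lower, beside 32.3% and 8.79% of their class, with a median log2 change of 2.30. The median total of the 424 loci was 213.1 FPKM at E50 and 61.7 at E60.

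Along the scaffolds, the change of a locus told little about that of its neighbour. Over 17406 pairs of adjacent loci, the Pearson correlation of the log2 changes was 0.03, and it was 0.03 as well for the 1505 pairs less than 1 kb apart. It was 0.17 for the 3520 pairs in which both loci held 1 transcript and 0.00 for the 6221 pairs in which both held several. These pairs share loci and are given as a description. On the 23 scaffolds with 100 or more loci, the share of higher loci ran from 42.0% on scaffold 14 to 62.5% on scaffold 93, and the share of lower loci from 10.9% to 22.4%. On all 23 scaffolds, as deposited, more loci were higher than lower at E60.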

How the data were processed

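RNA was pooled per stage and, per the study, cDNA libraries were normalised, reads were aligned to the WZSP genome with TopHat, and transcripts were assembled with Cufflinks (version 1.0.3 in the submitters' processing notes, a later one in the methods) and compared with Cuffdiff. The authors deposited FPKM per transcript and stage, beside their own fold changes, test statistics, p-values and q-values, which were not used. The study's methods also name a quantile step, but the deposited quantiles differ between stages. FPKM values of the E50 against E60 comparison were summed per locus in Python 3.11.15 (numpy 2.4.6, pandas 2.3.3, matplotlib 3.10.9), with starts converted to count from 1. Changes were differences in log2(sum + 1). The table gives 1 value for the 3 samples labelled E70, which were not analysed here. The members and lists were chosen with earlier results of these data known. Named loci were, in each class, the 5 largest rises and falls among loci of at least 1 FPKM at both stages, the 3 highest means and the 2 smallest changes at 10 FPKM or more, with the 3 widest spreads of transcripts and the septin, MARCH and lincRNA pair loci. The calculations were tested on copies of the deposited E50 values with known changes planted in them and no noise added. Alternatives were another pseudocount, 2 scalings, filters, a 4-fold threshold and other treatments of transcripts. An interval can merge neighbouring genes.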

Additional observations from a re-analysis of the deposited data

Results flagged for a closer look

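The rows of the other comparison list E60 values that the E50 against E60 rows do not. For 755 transcripts E60 is listed at 0 beside E50 and above 0 beside E70, with a median of 20.1 FPKM and a maximum of 23778. They lie at 715 loci, all with several transcripts, and all 755 carry the status of a failed fit or too little data. None of the 755 is above 0 at E50, and those zeros were kept, so this replacement can move a call upward only. With the values above 0 in place of the zeros, the call of 89 loci changed, 47 loci became higher at E60 and 50 were no longer lower.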

How the results depend on the processing

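No paired analysis was possible because each stage has 1 pooled value. With a pseudocount of 0.1, 1364 loci with 1 transcript were lower at E60 in place of 718. With equal medians the numbers were 1453 lower loci with 1 transcript, and 4120 higher (in place of 6453) and 4163 lower (in place of 2531) loci with several. After quantile normalization, 1519 loci with 1 transcript were higher (in place of 2642) and 2196 lower, and 3784 loci with several were higher. With a total of at least 1 at both stages, 447 loci with 1 transcript were higher and 140 lower, and 2536 loci with several were higher; fewer loci were counted. At 4-fold, 361 loci with 1 transcript were lower. Among loci above 0 at both stages, an alternative chosen after seeing the data, 1003 loci with 1 transcript were higher and 298 lower. The leading transcript differed at 2693 of 3411 loci with at least 10 FPKM at both stages. Where the scalings moved a count, the cause was not tested. The other 26 counts lay within 1.5 times the main count, but several of them could not move. A filter of at least 1 at 1 or both stages removes no call, since a 2-fold change on this scale needs such a total. No locus with 1 transcript holds a value replaced from the E70 rows or the status of a failed fit or too little data (FAIL or LOWDATA). Those alternatives therefore cannot move the counts of that class. Untested transcripts (status NOTEST) were not filtered out, and that class holds some, as at SEPT14. Of 77 named loci, the log2 change turned from negative to positive after quantile normalization at 7 and from positive to negative at 4. Of these, 4 had been 2-fold or more lower as deposited and turned to 2.61 (scaffold 307), 0.84 (scaffold 325), 1.77 (AP2M1) and 0.51 (the lincRNA locus beside NFE2L2). Of 637 values of named loci under alternatives, 587 stayed on the same side of 2-fold. Many of these could not do otherwise, since a filter leaves the change of a kept locus as it is. Of 77 named loci, 60 stayed on the same side with equal medians and 48 after quantile normalization. The median log2 change ran from -0.47 to 1.996 at loci with 1 transcript, the lowest being the value that quantile normalization gives to loci at 0 at both stages and the highest with a total of at least 1 at 1 or both stages, and from 0.06 to 2.68 at loci with several.

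The values come from pooled RNA with 1 value per stage, so the spread between animals is unknown, as is the number of reads behind a value. A total listed at 0 may be a failed estimate. How library normalisation affected the levels is unknown. Totals depend on how transcripts were assembled into loci. A transcript with a failed fit or too little data (FAIL or LOWDATA, not NOTEST) is held at 1647 loci, none with 1 transcript. Without these loci, 5685 loci with several transcripts were higher and 1845 lower.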
